A study of Mus musculus with 8 samples.

Results

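The ON bipolar mGluR6 cascade genes were taken by name from the deposited expression table, and all 10 of them, out of 57010 genes listed, were found there: Grm6, Trpm1, Nyx, Gpr179, Lrtm1, Rgs7, Rgs11, Gnb5, Gnao1 and Prkca. ON bipolar cells are the retinal interneurons that depolarise when light stops glutamate release from photoreceptors. In the dark, glutamate holds the metabotropic receptor mGluR6 active, its G protein Go keeps the TRPM1 cation channel closed, and the RGS7 and RGS11 complexes end the Go signal so that the channel can open at light onset. Human mutations in GRM6, TRPM1, NYX and GPR179 cause complete congenital stationary night blindness, in which this synaptic response is lost. The study compared 4 libraries from retinas given a self-complementary AAV meant to knock down the lncRNA MM2P (AAV_sh) with 4 from retinas given a control scAAV (AAV_NC). All mice were of the C57BL/6J strain, were 17 days old and had oxygen-induced retinopathy (OIR), a model of retinal vessel growth after high oxygen. The treatment label of the knockdown samples reads as a knockout, whereas the design text calls the treatment a knockdown. The capsid, the promoter, the age at injection and whether a library came from 1 animal or from a pool are not stated in the labels, so the spread between libraries may be partly technical.

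The libraries held 16.03 to 20.2 M estimated counts in the knockdown group and 20.5 to 21.4 M in the control group (M, 1000000 counts). TPM, transcripts per 1000000, is a level per gene length and was computed from those counts. The MM2P gene, Mm2pr, had 0, 0, 2 and 20.6 estimated counts in the knockdown libraries and 1, 1, 17.0 and 7.34 in the control libraries, too few to check the knockdown. Summed lens marker TPM was 41.5 to 441 in the knockdown group, against 3.74 to 7.33 in the control group, with 7 of 11 tested lens genes called higher in the knockdown, and the part of this in the results below was not tested. The whole retina was sequenced, so fewer ON bipolar cells and less RNA per cell cannot be told apart.

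None of the 10 cascade genes passed the test between knockdown and control retinas. All 10 were among the 16118 genes tested, a set that required 1 TPM or more in 4 or more libraries. By the quasi-likelihood test of edgeR, 0 of 10 had a Benjamini-Hochberg adjusted p under 0.05 and 0 of 10 had an unadjusted p under 0.05, where 0.062% and 5.27% of all tested genes did. DESeq2 and limma on log2(TPM + 1) also called 0 of 10, where they called 45 and 0 of the 16118 tested genes. With limma the count of calls was thus 0 for any list. The limma test gave an unadjusted p under 0.05 to 1 member, Nyx, and to 852 of all tested genes. The log2 fold change, knockdown over control, was above 0 for 7 members and below 0 for 3, with a median of 0.013 beside 0.0039 over all tested genes. The TPM ranges of the groups overlapped for every member, whereas they were separate for 2.95% of all tested genes, 1.5% with the knockdown higher and 1.45% with it lower. The 95% intervals of the single genes ran from -16.7% at the lowest, for Rgs11, to 26.5% at the highest, for Nyx.

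**Figure D1:**
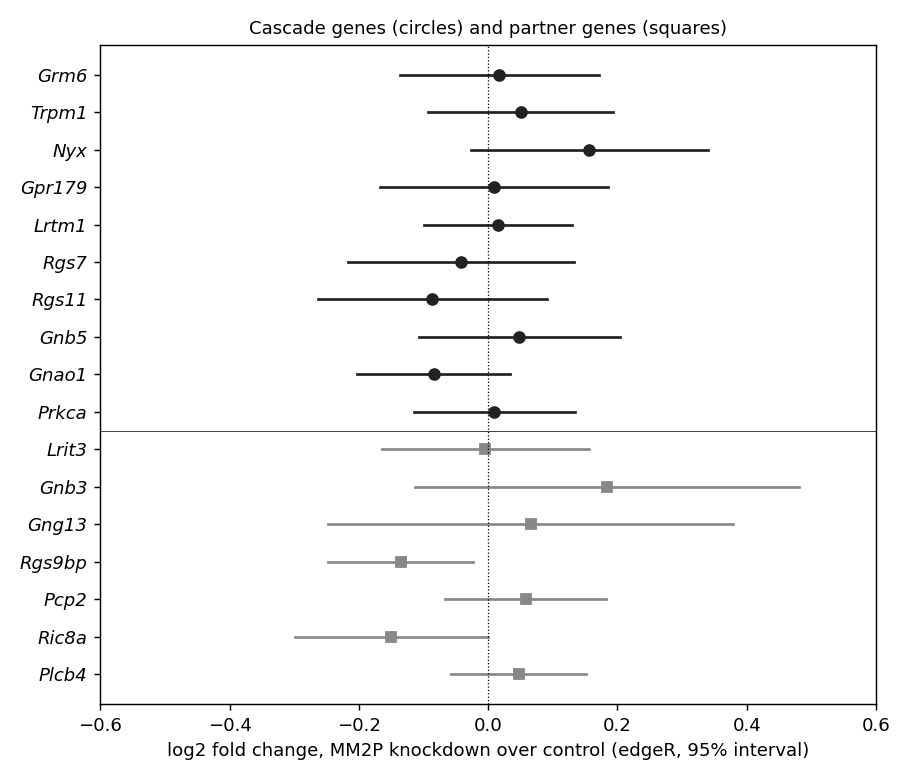
Log2 fold change of each cascade gene (black circles) and each partner gene (grey squares), MM2P knockdown over control, from edgeR with 95% intervals (4 libraries per group). The interval of each of the 10 cascade genes spans 0, with Nyx at 0.16 lying farthest from it.

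The receptor and the channel differed between groups by less than the spread between libraries. Grm6 (ENSMUSG00000000617, chromosome 11, 50850685 to 50866208, plus strand, GRCm38 as are all positions here), the gene of mGluR6, had 67.7, 78.8, 81.1 and 85.7 TPM in knockdown libraries 1 to 4, against 82.3, 87.5, 73.1 and 65.97 TPM in control libraries 1 to 4. Its lowest values, in knockdown library 1 and control library 4, came from different groups, and the groups overlapped over most of their range. It averaged 78.3 ± 7.65 TPM in knockdown and 77.2 ± 9.55 TPM in control retinas (SD, n = 4 each). The log2 fold change was 0.017 (SE 0.072, 95% interval -0.14 to 0.17, edgeR adjusted p = 0.997). Grm6 shares 599 of its 5421 exonic bases with the antisense gene Gm12660, which had at most 10.98 counts in a library. Whether the counting used strand is not given.

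Trpm1 (ENSMUSG00000030523, chromosome 7, 64153835 to 64269775, plus strand) encodes the cation channel at the end of the cascade. It had 106, 127, 134 and 139 TPM in the knockdown libraries and 120.4, 135, 121 and 111 TPM in the control libraries. Knockdown library 1 and control library 4 again held their groups' lowest values, and the knockdown group held both the lowest and the highest of the 8. It averaged 127 ± 14.8 TPM in knockdown and 122 ± 9.96 TPM in control retinas (SD, n = 4 each). This gave a log2 fold change of 0.050 (SE 0.066, 95% interval -0.093 to 0.19, edgeR adjusted p = 0.991). Melanocytes also express Trpm1. Summed TPM of the pigment genes Mitf, Dct, Mlana, Slc45a2 and Oca2 was 58.7 to 73.4 in knockdown and 51.9 to 65.0 in control retinas, and their part in the Trpm1 values was not tested.

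Gpr179 (ENSMUSG00000070337, chromosome 11, 97332109 to 97352077, minus strand), an orphan receptor that anchors the RGS complexes at the dendritic tips, followed Grm6 from library to library. It had 33.4, 38.9, 42.8 and 45.1 TPM in the knockdown libraries and 41.6, 45.1, 38.98 and 33.1 TPM in the control libraries. The lowest and the highest value of each group nearly coincided with those of the other. It averaged 40.1 ± 5.16 TPM in knockdown and 39.7 ± 5.10 TPM in control retinas (SD, n = 4 each). Its log2 fold change was 0.0089 (SE 0.082, 95% interval -0.17 to 0.18, edgeR adjusted p = 0.998). Its TPM was 0.510 ± 0.0197 of that of Grm6 in knockdown and 0.514 ± 0.0141 in control retinas (SD, n = 4 each), a ratio that varied by 3.12% over the 8 libraries while Gpr179 itself varied by 11.9%. The ratio of Trpm1 to Grm6 was 1.62 ± 0.0401 in knockdown and 1.59 ± 0.102 in control retinas (SD, n = 4 each).

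The levels of Grm6, Trpm1 and Gpr179 varied together across libraries. Those of Prkca (Pearson r 0.95 with Trpm1) and Gnao1 (0.91 with Grm6) varied with them about as closely. The promoters of Grm6, Trpm1 and Gpr179 are shown here, with that of Lrtm1 as another member with the motif searched. They are the 250 bases before the RefSeq start (GRCm38.p6), 5′ to 3′ on the gene's strand, with capitals marking TAATCC, the core that CRX and OTX2 bind, or its reverse complement GGATTA.
Grm6, chr11:50850435-50850684 plus strand: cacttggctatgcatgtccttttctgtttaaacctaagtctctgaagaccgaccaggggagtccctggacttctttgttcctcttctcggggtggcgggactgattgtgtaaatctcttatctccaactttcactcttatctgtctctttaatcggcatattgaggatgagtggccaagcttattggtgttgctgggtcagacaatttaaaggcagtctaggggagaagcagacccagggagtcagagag
Trpm1, chr7:64153585-64153834 plus strand: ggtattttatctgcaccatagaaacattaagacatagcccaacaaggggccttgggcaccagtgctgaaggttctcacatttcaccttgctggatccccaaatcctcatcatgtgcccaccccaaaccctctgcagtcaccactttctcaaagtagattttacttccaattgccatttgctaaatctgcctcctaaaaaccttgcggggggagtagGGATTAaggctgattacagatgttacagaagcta
Gpr179, chr11:97352357-97352606 minus strand: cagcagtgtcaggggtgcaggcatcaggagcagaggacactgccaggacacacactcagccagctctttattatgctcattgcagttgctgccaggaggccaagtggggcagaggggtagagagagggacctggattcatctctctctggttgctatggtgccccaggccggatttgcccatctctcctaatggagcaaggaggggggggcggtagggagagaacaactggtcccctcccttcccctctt
Lrtm1, chr14:29017958-29018207 plus strand: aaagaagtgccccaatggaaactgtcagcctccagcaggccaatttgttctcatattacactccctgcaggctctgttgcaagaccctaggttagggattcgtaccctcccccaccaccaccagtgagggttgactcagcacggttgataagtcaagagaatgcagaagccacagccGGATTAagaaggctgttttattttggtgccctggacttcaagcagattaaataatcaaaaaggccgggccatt
RefSeq promoters were found for 9 of the 10 members, as 10 entries since Trpm1 has another start. TAATCC on either strand was present for 3 members, Trpm1, Lrtm1 and Gnb5, each time as GGATTA, at 34, 73 and 6 bases before the start. Among all 32851 promoters of that length 6.25% held it. TAATTA, a core bound by homeodomain proteins, was in the window of 0 members, and in 4.84% of all promoters. The Grm6 and Gpr179 windows hold neither set of letters, and nor does the window of the other Trpm1 start. The part of promoter sequence in the shared library pattern was not tested.

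**Figure D2:**
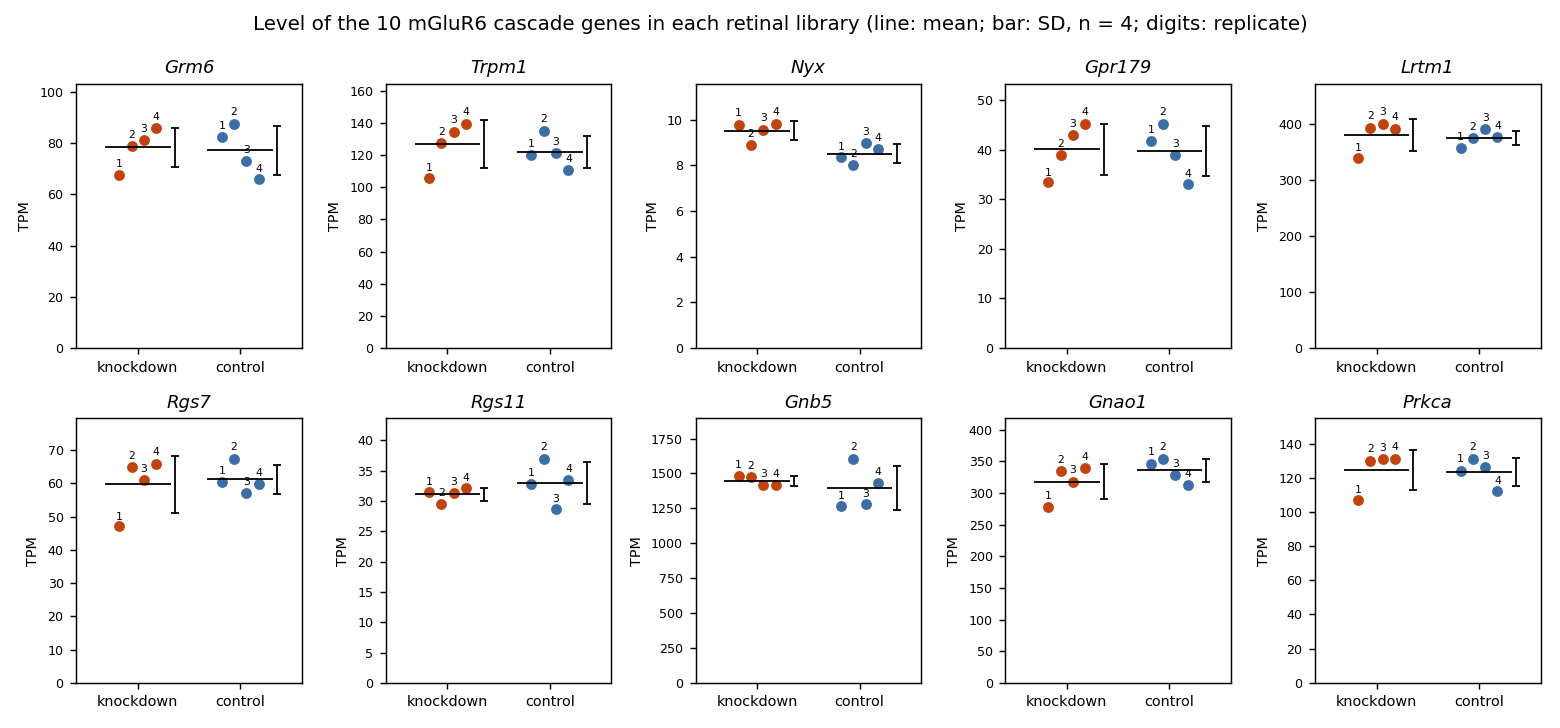
TPM of each cascade gene in each library, 4 knockdown libraries on the left and 4 control libraries on the right of every panel (linear axes). The 2 groups overlap in each panel, and for Nyx only 1 knockdown library, at 8.91 TPM, lies under the highest control library, at 8.96 TPM.

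Nyx and Lrtm1 encode leucine-rich repeat proteins, per the domain annotation in the table. Nyx (ENSMUSG00000051228, chromosome X, 13466110 to 13489313, plus strand) encodes nyctalopin, which holds TRPM1 at the dendritic tips. It was the lowest member, with 9.79, 8.91, 9.57 and 9.82 TPM in the knockdown libraries and 8.35, 8.04, 8.96 and 8.71 TPM in the control libraries. The knockdown values were higher but for knockdown library 2, which lay just below control library 3. Nyx averaged 9.52 ± 0.422 TPM in knockdown and 8.52 ± 0.407 TPM in control retinas (SD, n = 4 each). The log2 fold change was 0.16 (SE 0.085, 95% interval -0.027 to 0.34, edgeR unadjusted p = 0.0878, adjusted p = 0.951). In limma on log2(TPM + 1) the unadjusted p was 0.0367 and the adjusted p was 0.9198. The gene rested on 315 to 409 estimated counts per library, which alone give a counting error of 5.20%. The observed variation was 4.43% within the knockdown group and 4.77% within the control group, no larger than that error. Over the 8 libraries it was 7.32%, which includes the difference between groups. Expressed as a percent change, the edgeR interval ran from -1.82% to 26.5%. The Y-linked gene Ddx3y was at 0 TPM in knockdown libraries 1 and 3 and in control library 1, and at 22.9 to 48.3 TPM in the others. With the Ddx3y level as a covariate, the Nyx log2 fold change was 0.15 (SE 0.092, edgeR unadjusted p = 0.116).

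Lrtm1 (ENSMUSG00000045776, chromosome 14, 29018208 to 29033645, plus strand) encodes a leucine-rich repeat membrane protein and lies within Cacna2d3 on the opposite strand, with 0 shared exonic bases. It had 339, 393, 400.2 and 391 TPM in the knockdown libraries, against 358, 375, 391 and 377 TPM in the control libraries. Knockdown library 1 stood below the other 7 libraries, and the other 3 knockdown libraries lay just above the control group. The averages were 381 ± 28.2 TPM in knockdown and 375 ± 13.4 TPM in control retinas (SD, n = 4 each). The difference came to a log2 fold change of 0.015 (SE 0.053, 95% interval -0.099 to 0.13, edgeR adjusted p = 0.997).

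Gnao1 (ENSMUSG00000031748, chromosome 8, 93809966 to 93969388, plus strand) encodes the alpha subunit of Go, which mGluR6 activates, and is used by many other neurons. It had 278, 334, 318 and 339 TPM in the knockdown libraries, against 346, 354, 329 and 313 TPM in the control libraries. Knockdown library 1 was the lowest of the 8 and control libraries 1 and 2 were the highest, with the rest mixed. Gnao1 averaged 318 ± 27.6 TPM in knockdown and 336 ± 18.3 TPM in control retinas (SD, n = 4 each). The fold change was -0.084 (SE 0.055, 95% interval -0.20 to 0.034 on the log2 scale, edgeR adjusted p = 0.976), so the interval in percent ran from -13.1% to 2.37%.

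Rgs7, Rgs11 and Gnb5 form the complexes that speed the shut-off of Go: both RGS proteins share the RGS, DEP and G-gamma-like domains in the table's annotation, and the beta subunit Gnb5 binds each. Rgs7 (ENSMUSG00000026527, chromosome 1, 175059087 to 175492500, minus strand) had 47.1, 64.8, 61.01 and 65.8 TPM in the knockdown libraries and 60.3, 67.4, 57.2 and 59.7 TPM in the control libraries. Knockdown library 1 was the lowest of the 8, and the other 3 knockdown libraries lay within the control range. Rgs7 averaged 59.7 ± 8.64 TPM in knockdown and 61.2 ± 4.37 TPM in control retinas (SD, n = 4 each). Its log2 fold change was -0.042 (SE 0.081, 95% interval -0.22 to 0.13, edgeR adjusted p = 0.997), and without knockdown library 1 it was 0.04. Rgs11 (ENSMUSG00000024186, chromosome 17, 26202951 to 26211324, plus strand) had 31.4, 29.5, 31.4 and 32.1 TPM in the knockdown libraries and 32.8, 36.97, 28.7 and 33.4 TPM in the control libraries. The knockdown values were close together and lay within the control range. The averages for Rgs11 were 31.1 ± 1.09 TPM in knockdown and 32.96 ± 3.39 TPM in control retinas (SD, n = 4 each). For Rgs11 the log2 fold change was -0.086 (SE 0.082, 95% interval -0.26 to 0.091, edgeR adjusted p = 0.989). The ratio of Rgs7 to Rgs11 was 1.92 ± 0.2995 in knockdown and 1.86 ± 0.0904 in control retinas (SD, n = 4 each), and was lowest in knockdown library 1.

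Gnb5 (ENSMUSG00000032192, chromosome 9, 75306288 to 75345876, plus strand) was the highest member. Gnb5 had 1481, 1472, 1414 and 1416 TPM in the knockdown libraries, against 1265, 1605, 1281 and 1433 TPM in the control libraries. Here knockdown library 1 was not low, and all 4 knockdown values lay inside the wider control range. Gnb5 averaged 1446 ± 35.3 TPM in knockdown and 1396 ± 159 TPM in control retinas (SD, n = 4 each). Its log2 fold change was 0.048 (SE 0.072, 95% interval -0.11 to 0.20, edgeR adjusted p = 0.997). Photoreceptors also use Gnb5, with Rgs9, so its retinal level is not that of ON bipolar cells alone.

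Prkca (ENSMUSG00000050965, chromosome 11, 107933387 to 108343928, minus strand) encodes protein kinase C alpha, the standard marker of rod bipolar cells. It had 107, 129.9, 131 and 131 TPM in the knockdown libraries, against 124, 131, 126 and 112 TPM in the control libraries. Knockdown libraries 2 to 4 were nearly equal to each other and to control library 2, while knockdown library 1 was the lowest. Prkca averaged 125 ± 11.8 TPM in knockdown and 123 ± 8.12 TPM in control retinas (SD, n = 4 each). On the log2 scale the fold change was 0.0097 (SE 0.058, 95% interval -0.11 to 0.13, edgeR adjusted p = 0.998).

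In order of mean TPM over the 8 libraries, Gnb5 (1421) came first, followed by Lrtm1 (378), Gnao1 (327), Trpm1 (124.3), Prkca (124.0), Grm6 (77.8), Rgs7 (60.4), Gpr179 (39.9), Rgs11 (32.03) and Nyx (9.02). The ranges of 4 neighbouring pairs overlapped. Trpm1 was above Prkca in 3 of 8 libraries, so their order was within the spread. Lrtm1 was above Gnao1 in 8 of 8, Grm6 above Rgs7 in 8 of 8 and Gpr179 above Rgs11 in 7 of 8. The order depends on the gene lengths used. With merged exon lengths from GENCODE M21, Prkca had 176 TPM, Gnao1 156, Lrtm1 119, Grm6 93.7 and Trpm1 65.1, and Gnb5 at 825 and Nyx at 13.7 kept the highest and the lowest place.

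Library 1 of the knockdown group had 5 of the 10 members at their lowest value and 8 of 10 below their own mean, and control library 4 had 8 of 10 below their mean. Control library 3 had 7 of 10 below their mean, and control library 2 held the highest value of 7 of 10. In knockdown library 1 and control library 4, the difference from the mean of all libraries fell off with gene length over the 12310 genes with a mean of at least 5 TPM. The median log2(TPM + 1) difference of the longest of 4 equal classes of genes minus that of the shortest was -0.17 in knockdown library 1 and -0.12 in control library 4, and between 0.018 and 0.090 in the other 6, with 0.063 in control library 2 and 0.022 in control library 3. In knockdown library 1 the shortest class had a median difference of 0.044, with Lrtm1 at -0.15 and Gnb5 at 0.063. The next class had a median of -0.028, with Rgs7 at -0.35 and Rgs11 at -0.024. The longest had a median of -0.13, with Trpm1 at -0.23, Nyx at 0.11, Gpr179 at -0.24 and Prkca at -0.21. The part of this length trend in the members' values was not tested. With an offset for it in the edgeR fit, with knockdown library 1 left out, or with knockdown library 1 and control library 4 both left out, 0 of 10 members were called. In that order the fits called 11, 15 and 11 of all 16118 tested genes.

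**Figure D3:**
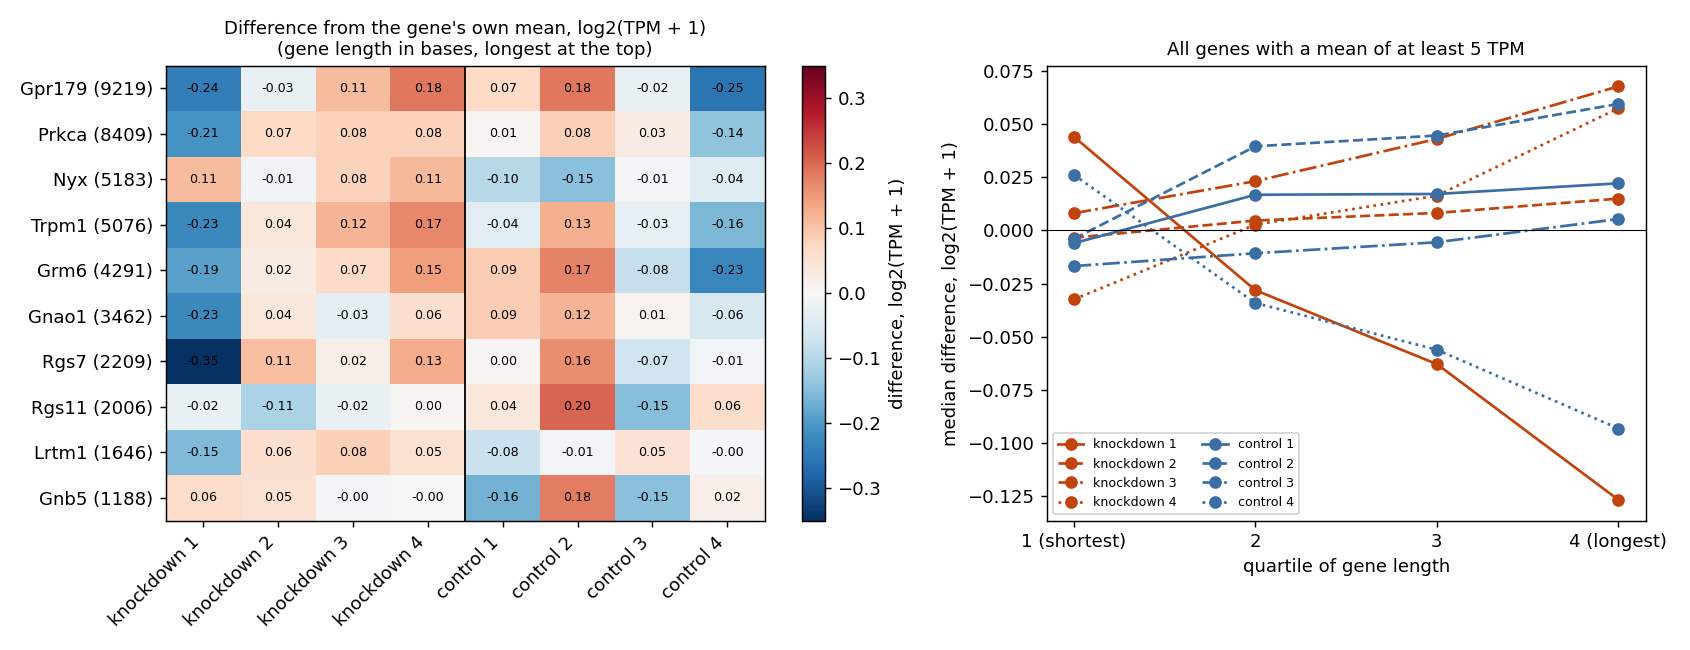
Left, each cascade gene's difference from its own mean log2(TPM + 1) in each library, with genes ordered by length and the knockdown libraries to the left of the control libraries. Right, the median of the same difference for 4 classes of gene length over 12310 genes, in which knockdown library 1 and control library 4 slope down from short to long genes.

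Across the 8 libraries, with the group means removed, Grm6 and Gpr179 had a Pearson r of 0.97, Trpm1 and Prkca 0.95, Trpm1 and Gpr179 0.94, Gnao1 and Rgs7 0.92, and Grm6 and Trpm1 0.90. These are descriptions over libraries that share depth and the length trend. Of the 45 pairs of members, 13 had r over 0.8, 12 were negative and the median was 0.38. Nyx was negative with all 9 others, down to -0.55 with Gnao1. Its variation within the groups (4.43% in knockdown, 4.77% in control) did not exceed its counting error of 5.20%. The part of sampling noise in these r values of Nyx was not tested. Rgs11 went most closely with Gnb5, at 0.72. The variation of Rgs11 was 3.49% within the knockdown group and 10.3% within the control group, beside a counting error of 4.43%. The genes whose library pattern was most like the mean standardised level of Grm6, Trpm1, Nyx, Gpr179 and Rgs11 were Snhg14, Rnf20, Pan3, Zfp523, Caprin2, Myt1, Pnn and Cpsf6, with r between 0.985 and 0.996 over the 8 libraries, and 399 of 11332 genes compared had r over 0.9. With that mean, r was 0.90 for Grm6, 0.90 for Trpm1 and 0.94 for Gpr179, but 0.51 for Rgs11 and -0.20 for Nyx.

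Of 7 partner genes of the pathway that are not members, 0 were called by edgeR, DESeq2 or limma and 1 had an unadjusted edgeR p under 0.05, with a median log2 fold change of 0.047. Lrit3, a leucine-rich repeat protein needed to place TRPM1 and nyctalopin, averaged 56.6 ± 5.65 TPM in knockdown and 56.6 ± 5.87 TPM in control retinas (SD, n = 4 each). Its log2 fold change was -0.0045 (edgeR adjusted p = 0.999), and the ratio of Lrit3 to Nyx was 5.96 ± 0.737 in knockdown and 6.66 ± 0.730 in control retinas (SD, n = 4 each). Rgs9bp, the membrane anchor of RGS9 and RGS11, averaged 235 ± 16.3 TPM in knockdown and 257 ± 11.4 TPM in control retinas (SD, n = 4 each). This was a log2 fold change of -0.14 with an edgeR unadjusted p of 0.0216 and an adjusted p of 0.852. Gnb3, the beta subunit of ON bipolar Go and of cone transducin, had 509, 312, 348 and 308 TPM in the knockdown libraries and 336, 354, 314 and 302 TPM in the control libraries. Knockdown library 1 lay above the other 7 for Gnb3, whereas it lay below the other 7 for Trpm1. The log2 fold change of Gnb3 was 0.18 (SE 0.14, 95% interval -0.11 to 0.48, edgeR adjusted p = 0.989). For Gng13, the gamma subunit that pairs with Gnb3, it was 0.066, for Pcp2, a Go-binding protein of these cells, 0.058, for Ric8a, a chaperone of G alpha subunits, -0.15, and for Plcb4, a phospholipase C, 0.047, with edgeR adjusted p-values of 0.997, 0.989, 0.930 and 0.989.

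Other regulators of G protein signalling and other metabotropic glutamate receptors gave 0 edgeR calls in 7 and 7 tested genes, with an unadjusted p under 0.05 for 1 and 0 of them. Among the regulators, which include Rgs4, Rgs8 and Rgs16 of another subfamily, 1 log2 fold change was above 0 and 6 were below, with a median of -0.11. For each of the 7, knockdown library 1 held the lowest TPM of its group. How much of the median rests on that library was not tested. Rgs9, the photoreceptor partner of Gnb5, stood at 0.10, Rgs6 at -0.056, Rgs7bp, a membrane anchor, at -0.12, Rgs4 at -0.066, Rgs8 at -0.12 and Rgs16 at -0.11. Gpr158, a relative of Gpr179, averaged 20.2 ± 2.89 TPM in knockdown and 23.2 ± 1.77 TPM in control retinas (SD, n = 4 each). Its log2 fold change of -0.20 had an edgeR unadjusted p of 0.0218 and an adjusted p of 0.852. On the table's gene lengths Grm6 had the highest TPM of the metabotropic glutamate receptor genes. The other 7 ranged in mean TPM over the 8 libraries from 2.52 for Grm3 to 19.7 for Grm8. Their log2 fold changes were above 0 for 3 and below 0 for 4.

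The bipolar cell lists were compared as well. Otx2, a transcription factor of photoreceptors and bipolar cells, averaged 363 ± 6.39 TPM in knockdown and 345 ± 8.01 TPM in control retinas (SD, n = 4 each), and its ranges did not overlap (edgeR adjusted p = 0.972). Of 48 tested genes in 4 lists (bipolar transcription factors, rod bipolar, ON cone bipolar and OFF cone bipolar markers), edgeR called 0 and 4 had an unadjusted p under 0.05. The median log2 fold change was 0.011, with 29 genes above 0 and 19 below. Those with an unadjusted p under 0.05 included Gabrr2, a subunit of the GABA receptor of bipolar terminals (-0.15), Car8 (0.14) and the transcription factor Prdm1 (0.17), of which Car8 was named after its values were seen. DESeq2 and limma on log2(TPM + 1) also called 0 of the 48. Ranges were separate with the knockdown higher for 3 of the 48, Otx2 and Car8 among them. They were separate with it lower for 2, Gabrr2 among them. Of all tested genes the shares were 1.5% and 1.45%. The medians of other retinal lists were -0.058 for 10 rod markers, -0.087 for 10 cone markers, 0.011 for 10 Müller glia markers and -0.063 for 10 amacrine markers, each with 0 edgeR calls and with 1, 1, 0 and 2 genes at an unadjusted p under 0.05. Of 10 ganglion cell markers 1 was called, Slc17a6, which averaged 52.01 ± 5.86 TPM in knockdown and 70.5 ± 3.38 TPM in control retinas (SD, n = 4 each), a log2 fold change of -0.44 with an edgeR adjusted p of 0.0465. That call is lost in limma on log2(TPM + 1), which called 0 genes of the whole table. In the ganglion cell list 5 of 10 genes had an unadjusted p under 0.05, all lower in the knockdown, 2 of 10 had separate ranges, also lower, and the median was -0.14. Endothelial markers, 8 tested, had 0 edgeR calls, 6 at an unadjusted p under 0.05, all lower in the knockdown, and a median of -0.22. Of 15 photoreceptor synapse genes, which face the ON bipolar dendrites, 0 were called by edgeR, 1 had an unadjusted p under 0.05 and the median was -0.029.

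**Figure D4:**
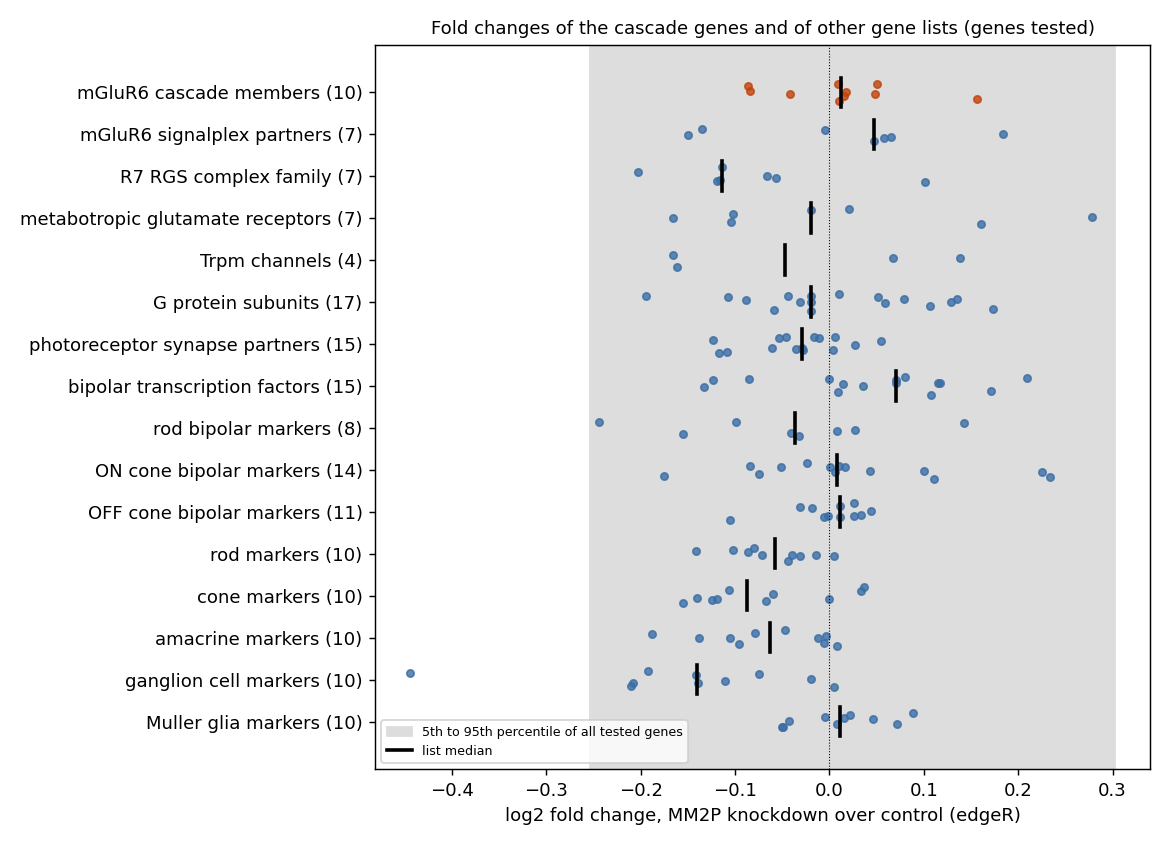
Log2 fold change, MM2P knockdown over control, of each tested gene by list (points) with the list median (bar), from edgeR on 4 libraries per group. The grey band spans the 5th to 95th percentile of all 16118 tested genes taken singly. The median of the cascade genes, 0.013, lies inside it, as does that of every other list drawn.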

How the data were processed

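Retinal RNA of 8 OIR mouse samples was extracted with TRIzol, and paired 150-base reads came from a NovaSeq X Plus, as the labels' protocols state. The submitters' processing notes name Bowtie 0.12.2 and mm9 without saying how they were used. The table deposited by the authors carries TPM in its name, yet its values are estimated counts: libraries sum to 16.03 to 21.4 M and 90.6% to 91.9% of entries are whole. The tool that estimated the counts, its annotation and its use of strand are not given, and such estimates are uncertain where genes share bases. Fractional values occurred in 5 libraries for Grm6, 5 for Gnb5, 1 for Trpm1 and 0 for the other members. The samples' separate origin from animals is not stated, so p-values measure the spread between these samples.

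Estimated counts were rounded and tested with edgeR 4.0.16 (R 4.3.3, limma 3.58.1) with TMM scaling and group as the only term, on 16118 of 57010 genes with at least 1 TPM in at least 4 libraries. The threshold was a Benjamini-Hochberg adjusted p of 0.05 over all tested genes. DESeq2 1.42.0 and limma served as alternatives. An SE is the size of the log2 fold change divided by the root of the F statistic. The common biological coefficient of variation was 9.59%. A count of 3 corresponded to 0.140 to 0.187 CPM. TPM was computed with the gene lengths in the table. The edgeR step was tested on simulated data with known changes, all larger than the fold change of any member. Whether it finds changes as small as those of the members was not tested. Positions came from GENCODE M21 on GRCm38, which lists 52081 (91.4%) of the identifiers. No library pair agreed within sampling noise (smallest chi-square per degree of freedom 4.57).

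The members and gene lists were chosen with earlier results of these data known. Named were all members, every gene of the pathway partner, RGS and metabotropic receptor lists, and of other bipolar and family lists called genes, the 4 highest in TPM and the 2 with the largest absolute log2 fold change. Likeness genes were the 8 with the highest r among those with a mean of at least 5 TPM and a conventional symbol. Other retinal lists are given as counts and medians, with called genes named, and lens genes as sums or counts alone. Some genes that the rule names are not reported here.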

Additional observations from a re-analysis of the deposited data

Results flagged for a closer look

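In 11 of 140 groups of 4 libraries tested over 70 named genes, 1 library stood apart from the other 3 by more than Dixon's 95% critical value for the gap over the group's range, where chance gives about 1 group in 20. The part in these flags of the length trend given above was not tested. Knockdown library 1 accounted for 9 of the 11. Among the members it was low for Lrtm1, at 339 TPM, with the other 3 between 391 and 400.2 TPM, and for Prkca, at 107 TPM, with the other 3 between 129.9 and 131 TPM.

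Among the other genes, knockdown library 1 was the lowest of its group for Gpr158, at 15.9 TPM, with the other 3 between 21.3 and 22.3 TPM, and control library 4 was the lowest of its group for that gene, at 20.5 TPM, with the other 3 between 23.9 and 24.2 TPM. Knockdown library 1 was lowest for Rgs4, at 108 TPM, with the other 3 between 135 and 139 TPM. It was also lowest for Prdm1, at 16.1 TPM, with the other 3 between 19.2 and 19.9 TPM, and for Prkce, at 109 TPM, with the other 3 between 119.9 and 121 TPM. The OFF cone bipolar markers Grik1 and Pcdh10 stood likewise, Grik1 at 68.2 TPM, with the other 3 between 83.4 and 86.2 TPM, and Pcdh10 at 31.7 TPM, with the other 3 between 38.8 and 40.2 TPM. For Gng5 the same library was the highest, at 86.4 TPM, with the other 3 between 67.97 and 68.8 TPM. Control library 4 was lowest for Prkci, at 36.7 TPM, with the other 3 between 38.2 and 38.4 TPM.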

How the results depend on the processing

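Under 21 alternatives, 19 planned and 2 chosen after seeing the data (a gene-length offset, and knockdown library 1 and control library 4 both left out), edgeR, DESeq2 and limma called 0 members, 0 partner genes and 0 genes of the 4 bipolar lists. The smallest adjusted p of any member was 0.628 (Trpm1 without knockdown library 1, log2 fold change 0.11). Direction held throughout for Trpm1, Nyx, Rgs11 and Gnao1. Leaving out 1 library at a time turned the direction of 6 members: log2 fold changes ran from -0.035 to 0.067 for Grm6, -0.054 to 0.070 for Gpr179, -0.012 to 0.049 for Lrtm1, -0.088 to 0.040 for Rgs7, -0.0013 to 0.11 for Gnb5 and -0.018 to 0.058 for Prkca. With knockdown library 1 and control library 4 both left out, Rgs7 was at 0.046. The median of all tested genes was 0.0039 with TMM scaling, 0.0034 with median-of-ratios, 0.0046 with upper-quartile scaling and 0.012 with the length offset.

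The count of all called genes was 10 in edgeR, 45 in DESeq2, 0 in limma with a pseudocount of 1, 0.1 or 5, 157 with no filter, 1 with a mean of at least 5 TPM and 0 with robust fitting, and 0 to 58 with 1 library left out (control library 1, 0; control library 2, 0; control library 3, 58; control library 4, 1). It was 11 with the length offset and 11 with knockdown library 1 and control library 4 both left out. The cause of this variation was not tested. Same-numbered libraries did not vary together over all tested genes (r -0.036, -0.010, -0.026 and -0.16). The labels state no pairing, and these r values, which also carry the length trend, cannot exclude one. A fit with the replicate block called 11 genes and 0 members. Merged exon lengths, chosen after seeing the data, moved the TPM of members, and no test was run with them. Depth limits Nyx and Rgs11 most.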

Other observations

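Relatives of the cascade genes in their protein families gave 0 edgeR calls in 17 G protein subunit genes, 4 tested Trpm channel genes and 8 protein kinase C genes, with medians of -0.020, -0.047 and -0.044. At an unadjusted edgeR p under 0.05 stood 1 subunit gene, Gnai3 (log2 fold change 0.13, named after its value was seen), 1 channel gene, Trpm3 (0.14), and 0 kinase genes. Trpm3 averaged 101 ± 9.27 TPM in knockdown and 91.9 ± 6.74 TPM in control retinas (SD, n = 4 each). On the table's gene lengths it was below Trpm1 in each of the 8 libraries. Trpm7 averaged 38.7 ± 4.37 TPM in knockdown and 36.8 ± 1.77 TPM in control retinas (SD, n = 4 each), and Trpm2 and Trpm4 averaged 3.30 and 1.598 TPM over the 8 libraries. Prkcq was lower in all 4 knockdown libraries than in the control libraries, at 9.549 ± 0.2996 TPM in knockdown and 10.64 ± 0.6740 TPM in control retinas (SD, n = 4 each), with an edgeR adjusted p of 0.951. Ranges were separate in this direction for 1.45% of all tested genes.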
